A study of Homo sapiens with 10 samples.

Results

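FOXA1, FOXA2, GATA6, CEBPA, KLF5 and SOX2 encode transcription factors of lung epithelium. The loci of these 6 genes were examined in the Smad3, Smad4 and TTF-1 binding maps of the lung adenocarcinoma lines H441 and A549. Members were all called peaks with at least 1 bp inside a fixed window around each gene: 37080001 to 37180000 on chromosome 14 for FOXA1, 22460001 to 22560000 on chromosome 20 for FOXA2 and 17950001 to 18090000 on chromosome 18 for GATA6. The other windows were 38440001 to 38530000 on chromosome 19 for CEBPA, 72480001 to 72600000 on chromosome 13 for KLF5 and 182860001 to 182960000 on chromosome 3 for SOX2. All positions are on hg18 and count from 1, and the windows are 90 to 140 kb long. In all, 56 of the 79601 peaks in 7 called lists lay in the windows: 10 for Smad3 in siControl cells, 11 for Smad3 in siTTF-1 cells, 20 for TTF-1 at 0 h, 15 for TTF-1 at 1.5 h, and 0 in each of the Smad4 siControl, Smad4 siTTF-1 and A549 Smad3 lists. Peaks that share at least 1 bp across the lists were merged into sites, which gave 22 sites of the 37950 in the genome.

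The maps come from chromatin immunoprecipitation with sequencing (ChIP-seq), in which DNA bound by a protein is isolated with an antibody and regions with more reads than input DNA are called as peaks. H441 is positive for TTF-1 (NKX2-1) by its labels. For Smad3 and Smad4, H441 cells received either a control siRNA, labelled siControl, or one against TTF-1, labelled siTTF-1. The TTF-1 maps carry the times 0 h and 1.5 h, and their titles mention no siRNA. A549 is TTF-1 negative, and only Smad3 was mapped in it. The protocol gives 1 ng/ml of TGF-β3 for 1.5 h for the cells of every library, so an untreated state at 0 h is read from the title alone. How far TTF-1 was depleted was not measured in these files, and TTF-1 was not mapped after depletion. Peaks were called against input, and the false discovery rate allowed was 1% in the H441 Smad3 and TTF-1 lists, 10% in the Smad4 lists and 5% in the A549 list. Each condition was 1 library, so a difference between lists has no replicate check, no test between conditions was possible, and the depth behind a peak is unknown.

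FOXA1 and FOXA2 are forkhead pioneer factors that open chromatin in foregut epithelium, and GATA6 is a zinc-finger factor of the lung and gut endoderm. CEBPA is a leucine-zipper factor of differentiating alveolar epithelium, KLF5 a Krüppel-like factor of epithelial growth and barrier genes, and SOX2 a factor of the proximal airway and of stem cells. TTF-1 is the homeodomain factor that specifies the lung and binds many of the same enhancers as the forkhead and GATA factors. Smad3 enters the nucleus after TGF-β receptor activation, usually with Smad4, and binds short DNA motifs beside cell-type factors. A peak near a gene does not show that the gene is regulated from it. With no hg18 annotation used here, peaks are placed by position and not as promoter, exon or intron. In RefSeq (GRCh38.p14), all 6 genes lie on the chromosome of their window, and the nearest protein-coding neighbours include MIPOL1 and TTC6 for FOXA1, MIB1 for GATA6, CEBPG for CEBPA, PIBF1 for KLF5 and ATP11B for SOX2.

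The sequences just before the gene starts are shown for 4 of the genes, to set the 3 loci with most peaks beside CEBPA, which had none. RefSeq promoters were matched for 5 of the 6 genes (all but FOXA2), and KLF5 has 2 starts in that table. The 250 bases before the start are printed 5′ to 3′ on the gene's strand, with capitals at each match to CAGAC (a Smad-binding core), GGCGC (a GC-rich Smad motif) or CAAGTG (a core of NKX2 homeodomain sites) on either strand.
FOXA1, GRCh38.p14 chr14:37595250-37595499, minus strand: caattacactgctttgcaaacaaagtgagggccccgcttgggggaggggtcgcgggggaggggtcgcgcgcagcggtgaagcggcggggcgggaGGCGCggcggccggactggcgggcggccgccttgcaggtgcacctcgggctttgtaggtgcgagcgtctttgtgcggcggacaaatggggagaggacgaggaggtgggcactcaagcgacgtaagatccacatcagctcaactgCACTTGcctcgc
KLF5 second start, GRCh38.p14 chr13:73058755-73059004, plus strand: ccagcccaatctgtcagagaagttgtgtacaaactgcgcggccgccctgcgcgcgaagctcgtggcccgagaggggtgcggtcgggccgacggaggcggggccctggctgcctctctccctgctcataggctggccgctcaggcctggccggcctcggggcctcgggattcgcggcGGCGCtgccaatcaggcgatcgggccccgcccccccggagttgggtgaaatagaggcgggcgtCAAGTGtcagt
GATA6, GRCh38.p14 chr18:22169339-22169588, plus strand: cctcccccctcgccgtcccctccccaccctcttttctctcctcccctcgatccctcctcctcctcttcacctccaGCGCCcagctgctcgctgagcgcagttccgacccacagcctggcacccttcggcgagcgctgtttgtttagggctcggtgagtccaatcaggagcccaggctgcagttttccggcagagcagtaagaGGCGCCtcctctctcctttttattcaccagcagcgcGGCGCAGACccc
CEBPA, GRCh38.p14 chr19:33302535-33302784, minus strand: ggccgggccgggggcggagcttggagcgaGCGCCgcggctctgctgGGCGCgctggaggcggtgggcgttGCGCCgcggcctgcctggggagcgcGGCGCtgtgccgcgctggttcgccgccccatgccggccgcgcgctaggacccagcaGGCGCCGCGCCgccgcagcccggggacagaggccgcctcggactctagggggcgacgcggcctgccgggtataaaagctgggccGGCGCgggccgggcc

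The GRCh38 positions cannot be set against the hg18 peaks, so these letters are not shown to lie under a peak. CAAGTG or its reverse complement CACTTG was present in the FOXA1 sequence, 12 to 7 bases before the start, and in that of the second KLF5 start, 11 to 6 bases before it. It was absent from the GATA6, CEBPA and SOX2 sequences and from that of the first KLF5 start. Of all 35116 RefSeq promoters, 9.50% held this motif in the same 250 bases. The GATA6 sequence had the only CAGAC match, 8 to 4 bases before the start, which overlaps a GGCGC match by 1 base in the run GGCGCAGAC. CAGAC was in 38.0% and GGCGC in 44.5% of all promoters, and CEBPA, with 81.2% G or C, had 8 GGCGC matches. These matches describe the letters and are not evidence of binding.

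Peaks were found at 4 of the 6 loci and only in the H441 Smad3 and TTF-1 lists. FOXA1 held 23 peaks over these 4 lists, KLF5 17, GATA6 10 and SOX2 6, and FOXA2 and CEBPA had none in any list. As a background, the chromosomes were divided into 30308 tiles of 100 kb. Smad3 siControl peaks lay at 4 of the 6 loci, where 18.0% of all tiles held one. Smad3 siTTF-1 peaks lay at 3 of the 6, where 25.5% of tiles did. For TTF-1 the count was 4 of 6 at both times, against 42.7% of tiles at 0 h and 34.6% at 1.5 h. The Smad4 siTTF-1 list and the A549 list had peaks in 4.66% and 5.93% of tiles, so 0 of 6 loci is near what these short lists hold anywhere. The Smad4 siControl list has 1 peak in all (0.00330% of tiles) and can show nothing about these genes. The tiles include gene-poor sequence and gaps, and 14445 of them held a peak of any list.

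**Figure D1:**
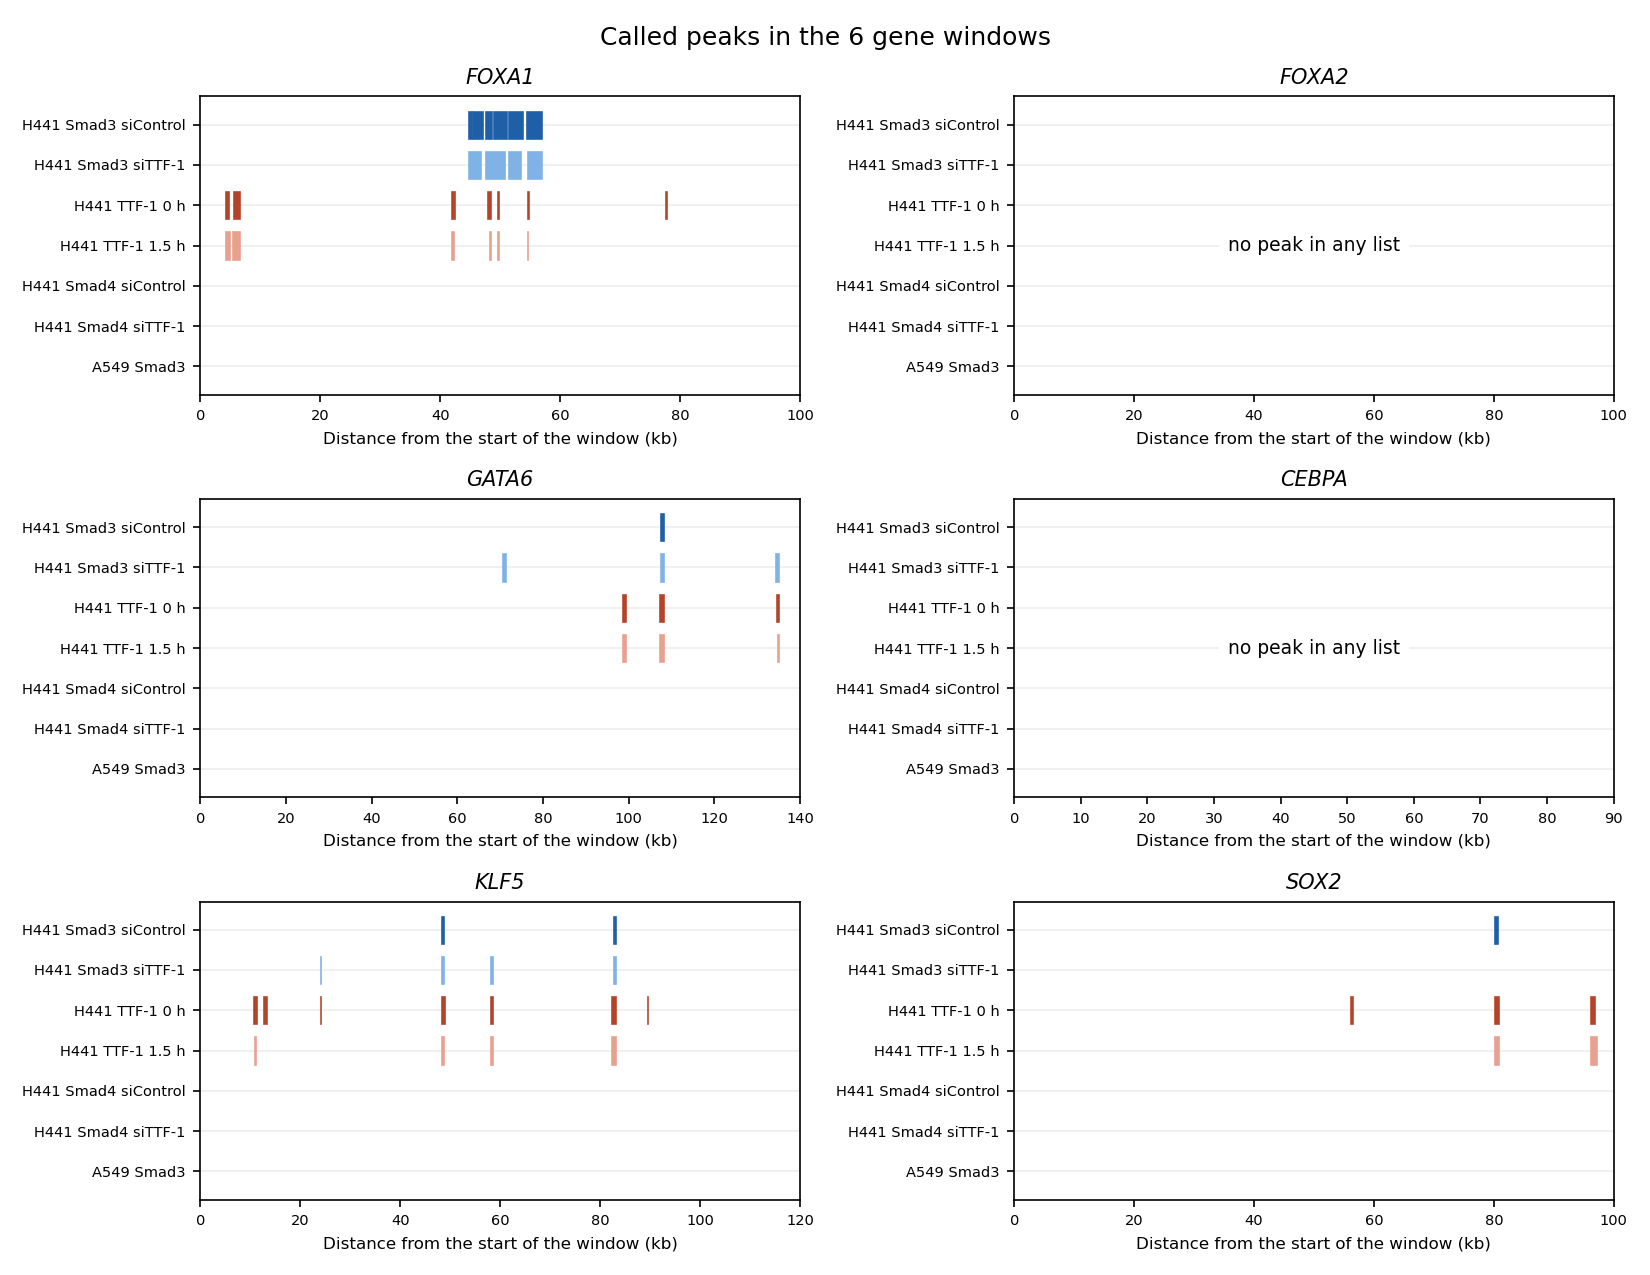
Called peaks in the windows of the 6 genes, drawn to scale as distance in kb from the start of each window (x axis), with 1 row per library (y axis). FOXA1, GATA6, KLF5 and SOX2 have peaks in the H441 Smad3 and TTF-1 rows, the Smad4 and A549 rows are empty, and FOXA2 and CEBPA have no peak in any list.

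At FOXA1, Smad3 peaks followed each other at short distances over more than 12 kb in both siRNA conditions. In siControl cells 6 peaks ran from 37124551 to 37137049 with gaps of 51 to 551 bp, and covered 11444 bp, or 91.6% of the 12499 bp run. Their widths in order were 749, 1849, 1249, 2399, 2499 and 2699 bp, where the median of the list is 599 bp. After TTF-1 depletion 4 peaks ran from 37124551 to 37136949, with widths of 2199, 3349, 2249 and 2549 bp and gaps of 551 to 851 bp. They covered 10346 bp. The run was divided differently: 2 siTTF-1 peaks each met a pair of siControl peaks, and all 6 siControl peaks met a siTTF-1 peak. Of the siControl bases in the run 88.6% were also in a siTTF-1 peak, and of the siTTF-1 bases 98.0% were in a siControl peak, against 76.7% and 50.4% over the whole lists.

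Runs of this length were few when gaps of up to 1000 bp were joined. When peaks of one list at most 1000 bp apart were joined, a rule chosen after seeing the data, the FOXA1 run and 1 other were the longest of 8394 in siControl cells: 2 reached 12499 bp. In siTTF-1 cells 2 of 13184 runs reached 12399 bp. The median run was 599 bp in both lists. With gaps of at most 500 bp the siControl run was 9249 bp, and that length was again reached by 2 runs. The siTTF-1 run broke at its gaps, and its longest piece was the single peak of 3349 bp, a length reached by 26 of 13544 runs. By peak count, 70 of the 30308 tiles (0.231%) held at least the 6 Smad3 siControl peaks of FOXA1, and 2.56% held at least the 4 Smad3 siTTF-1 peaks.

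**Figure D2:**
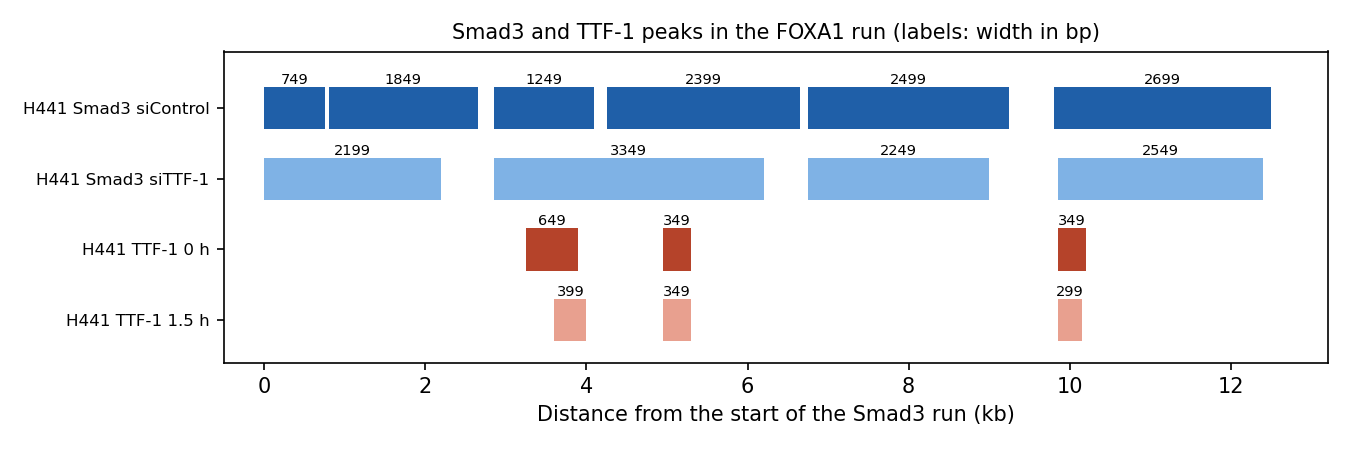
The Smad3 run at FOXA1, with distance in kb from its first base (x axis), 1 row per H441 library (y axis) and the width of each peak in bp above it. Wide Smad3 peaks fill the run in both siRNA conditions, while the TTF-1 peaks in it are 299 to 649 bp wide and fall at 3 places.

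TTF-1 occupied only small parts of that run. Inside it lay 3 TTF-1 peaks at 0 h, of 649, 349 and 349 bp, and 3 at 1.5 h, of 399, 349 and 299 bp, at the same 3 places. Of the 6 siControl Smad3 peaks 3 met a TTF-1 1.5 h peak, and the 2 peaks at the left end of the run and the fifth met none. Only 9.15% of the Smad3 siControl bases at FOXA1 lay in a TTF-1 1.5 h peak, where the whole list had 76.2%. The share was lower for wide peaks: among the 59 siControl peaks of at least 2 kb in the genome it was 45.2%, and for the 3 of them at FOXA1 it was 8.53%. In siTTF-1 cells 13.0% of the FOXA1 Smad3 bases lay in a TTF-1 0 h peak, against 49.9% for the 90 peaks of at least 2 kb and 55.7% for all. Merged across lists, the run formed 4 sites. Those at 37124551 to 37127199 and 37131301 to 37133799 had Smad3 in both conditions and no TTF-1, a pattern of 1.47% of all sites in the genome, and those at 37127401 to 37131199 and 37134351 to 37137049 had all 4 maps.

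The right end of the run came first of all FOXA1 sites by list order. Each list numbers its peaks from 1, and the labels do not say what the number ranks, so it is given here as a percent of the list's length, where a low percent is near the head. The 2699 bp siControl peak at 37134351 stood at 5.54% (number 495 of 8941) and its 2549 bp siTTF-1 counterpart at 8.66%. At its left edge, TTF-1 peaks started at 37134401, at 14.9% of the 0 h list and 43.2% of the 1.5 h list. The other Smad3 siControl peaks of FOXA1 stood at 10.8%, 11.2%, 30.0%, 31.8% and 93.1%, and the other siTTF-1 peaks at 16.3%, 31.6% and 41.2%. By contrast, the remaining TTF-1 peaks inside the run were late in their lists, at 63.6% and 87.0% at 0 h and at 93.8% and 96.1% at 1.5 h. At 37127401 to 37131199, Smad3 was thus early and TTF-1 late in its list.

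TTF-1 had 4 further sites in the FOXA1 window, all without Smad3. A pair lay near the left end of the window, at 37084051 to 37084999 and 37085201 to 37086599, separated by 201 bp and called at both times. Its right member was the widest TTF-1 peak of the 6 windows at each time, with 1149 bp at 0 h and 1399 bp at 1.5 h. A site at 37121801 to 37122399, 2151 bp to the left of the run, was called at both times and late in both lists (83.7% and 92.8%). The last, at 37157551 to 37157799, was a 249 bp peak called at 0 h only. With 7 peaks at 0 h and 6 at 1.5 h, FOXA1 was matched or exceeded by 1.79% and 1.23% of the 100 kb tiles.

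KLF5 had the most TTF-1 sites of the 6 loci, 7 in 120 kb against 6 in 100 kb at FOXA1. By TTF-1 peaks over both times FOXA1 had more, 13 against 11. The Smad3 peaks of KLF5 lay in the later part of their lists. The KLF5 window held 7 TTF-1 peaks at 0 h, 4 at 1.5 h, 2 Smad3 peaks with siControl and 4 with siTTF-1. Of tiles as long as the window (120 kb), 2.78% held at least as many TTF-1 0 h peaks and 3.38% at least as many Smad3 siTTF-1 peaks. The shares were 6.30% for TTF-1 at 1.5 h and 8.20% for Smad3 siControl. All 7 sites had TTF-1 at 0 h. The Smad3 siControl peaks lay at 72528251 to 72528849 and 72562601 to 72563199. Both were 599 bp wide, stood at 95.3% and 91.4% of their list, met TTF-1 peaks of both times and were called again in siTTF-1 cells. There they were again 599 bp wide, with edges moved by 50 bp, and stood at 67.7% and 58.4% of that longer list.

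The siTTF-1 list held 2 further Smad3 peaks at KLF5, here called gained because no siControl peak met them. That list is longer than the siControl list (14145 against 8941 peaks). Both gained peaks stood late in it, as numbers 10656 (75.3%) and 12460 (88.1%), so a list cut to 8941 peaks would not hold them. The gained peak at 72538001 to 72538599 belonged to a site 8951 bp beyond the one at 72528201 and met TTF-1 peaks of both times. The other, at 72503901 to 72504149, had the same first and last base as a TTF-1 0 h peak, and neither had a 1.5 h counterpart. At 249 bp it was among the narrowest of its list, of which 99.5% were as wide or wider. The TTF-1 sites without Smad3 were at 72490601 to 72491249, called at both times, and at 72492551 to 72493299 and 72569301 to 72569499, called at 0 h only. The last of these was 199 bp wide and stood at 97.1% of the 0 h list.

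GATA6 had 1 Smad3 peak with siControl and 3 after TTF-1 depletion. Of those 3, 2 were gained (66.7%, exact interval 9.43 to 99.2), against 49.1% of the whole siTTF-1 list. The siControl peak, 18057251 to 18058149, was called again at 18057301 to 18058149 and stood at 59.5% of the siControl and 87.6% of the siTTF-1 list. It lay within TTF-1 peaks of 999 bp at 0 h and 949 bp at 1.5 h, which were early, at 16.4% and 19.9% of their lists. The gained peak at 18084251 to 18085149, of 899 bp, met TTF-1 peaks of both times. The gained peak at 18020401 to 18021249, of 849 bp, met no peak of another list and was the only Smad3 site outside FOXA1 without TTF-1. It stood at 45.3% of the siTTF-1 list, and 9.76% of all sites in the genome had the same pattern. A TTF-1 site at 18048451 to 18049299, 7901 bp before the shared site, had peaks of both times and no Smad3. The window is 140 kb long, and 8.23% of tiles of that length held at least 3 Smad3 siTTF-1 peaks. At least 1 Smad3 siControl peak was in 23.2% of them. At least 3 TTF-1 peaks were in 21.4% at 0 h and 14.0% at 1.5 h.

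At SOX2 the 1 Smad3 siControl peak was not called in siTTF-1 cells. Over the whole siControl list 80.8% of peaks were called again, so 1 such peak does not set the locus apart. The only Smad3 peak of SOX2, at 182940051 to 182940749 in siControl cells, was 699 bp wide and stood at 37.8% of its list. It started at the same base as the TTF-1 peaks of both times, which ended at 182940799 and stood at 22.9% and 39.7% of their lists. This peak is in the list of lost Smad3 sites that the authors deposited, a subset of these same Smad3 peaks and so not separate support. The nearest Smad3 siTTF-1 peak was outside the window, at 182824651 to 182825349, 34.7 kb before its start, and it met peaks of Smad3 siControl and of TTF-1 at both times. The other SOX2 sites were TTF-1 sites: 182956001 to 182957149 at both times, and 182916051 to 182916549 at 0 h only. Of the 100 kb tiles 18.0% held at least 1 Smad3 siControl peak. At least 3 TTF-1 0 h peaks, the SOX2 count, were in 14.7%, and at least its 2 at 1.5 h in 17.4%. As background, SOX2 lies inside the long non-coding gene SOX2-OT, and the peaks were not placed relative to either gene.

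FOXA2 and CEBPA stood apart by the absence of peaks, and their surroundings differed. Around FOXA2 the nearest peaks were TTF-1 peaks 93.6 kb before and 80.9 kb after the window at 0 h. The nearest Smad3 siControl peaks were 141 kb before and 290 kb after it. Around CEBPA, TTF-1 peaks lay 13.5 kb and 20.8 kb after the window at 0 h, both called again at 1.5 h. A gained Smad3 siTTF-1 peak lay 29.4 kb after it, at 38559401 to 38560099, while the nearest siControl peak was 161 kb away. This gained peak was number 12139, so a list cut to 8941 peaks would not hold it. Of the 100 kb tiles 42.7% held a TTF-1 0 h peak, so a window without one is common.

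Smad4 and A549 Smad3 peaks were absent from the windows, and at KLF5 A549 peaks began just outside. The nearest A549 peak was 5.70 kb after the KLF5 window, at 72605701 to 72606099. It shared its first base with a gained Smad3 siTTF-1 peak of H441 (72605701 to 72606199) and met no Smad3 siControl or TTF-1 peak. That H441 peak was number 9286 of its list, so a list cut to 8941 peaks would not hold it. A second A549 peak, 10.9 kb after the window, met an H441 Smad3 siTTF-1 peak, which in turn met Smad3 siControl and TTF-1 0 h peaks. Over the whole A549 list 58.2% of peaks met an H441 Smad3 siTTF-1 peak, so such overlap is common. At the other loci the nearest A549 peak was 119 kb (FOXA2), 187 kb (CEBPA), 304 kb (GATA6), 453 kb (SOX2) and 2940 kb (FOXA1) from the window. Smad4 siTTF-1 peaks came no nearer than 141 kb (FOXA2) and 179 kb (GATA6). The long FOXA1 run therefore had no counterpart within 2 Mb in A549 or Smad4 peaks.

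Set side by side over the loci, Smad3 peaks were kept, gained or lost, and no direction of change is read from 1 library per condition. Of the 10 siControl peaks 9 were still called (90.0%, exact Clopper-Pearson 95% interval 55.5 to 99.7), and 80.8% of the whole list were. All 6 at FOXA1, 1 at GATA6 and 2 at KLF5 were kept, and 1 at SOX2 was lost. Of the 11 siTTF-1 peaks 4 were gained (36.4%, 10.9 to 69.2), against 49.1% of the whole list, with 2 each at GATA6 and KLF5. Both intervals include the value of the whole list. The intervals cover counting error only, and peaks of 1 library at 1 gene share their source. When a peak counted as kept only with centres within 200 bp, 5 of the 10 were kept (50%), against 74.7% of the whole list. With both lists cut to the same length by peak number, 7 of the 10 were kept (70.0%), against 67.1% of the list. At that length 2 of 7 siTTF-1 peaks were gained (28.6%), against 33.5%, and these were the GATA6 peaks (numbers 4933 and 6410). The kept and gained counts thus changed with this cut, which uses a peak number whose meaning is not given.

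With the full lists and an overlap of at least 1 bp, most Smad3 peaks at the loci met TTF-1. Every interval under this rule included the share of the whole list. A TTF-1 1.5 h peak was present at 7 of the 10 Smad3 siControl peaks (70.0%, exact interval 34.8 to 93.3), against 82.2% of the list. The 3 without one were all in the FOXA1 run, and the 4 siControl peaks at GATA6, KLF5 and SOX2 all had TTF-1 at both times. Of the 11 Smad3 siTTF-1 peaks 8 met a TTF-1 0 h peak (72.7%, 39.0 to 94.0), against 62.5% of the list. The 0 h list is longer than the 1.5 h list (31083 against 21291 peaks) and carries another time, so the siControl and siTTF-1 shares are not compared. In the other direction, 7 of the 15 TTF-1 1.5 h peaks had a Smad3 siControl peak (46.7%, 21.3 to 73.4), against 34.3%. When both lists were cut to the same length by peak number, or to their wider 50%, 3 of 10 siControl peaks (30.0%) had a TTF-1 1.5 h peak. The share of the whole list was then 54.1% at equal length and 76.6% for the wider peaks.

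Each of the 15 TTF-1 peaks at 1.5 h met a 0 h peak. The same count of peaks over the whole 1.5 h list is not given here. Counted in bases, 91.3% of the whole 1.5 h list lay in a 0 h peak. At the loci this share was 83.3% for FOXA1, 97.8% for GATA6, 94.5% for KLF5 and 84.2% for SOX2. In the 0 h list, 15 of the 20 member peaks were still called later (75.0%, exact interval 50.9 to 91.3), against 65.3% of the list. The 5 called at 0 h only were 3 at KLF5, 1 at FOXA1 and 1 at SOX2, with widths of 199 to 749 bp. In 10 of the 15 pairs both edges agreed within 100 bp, against 72.5% of the 20535 pairs over the whole lists. In 3 pairs both edges were identical: at the SOX2 site with Smad3, at KLF5 (72562251 to 72563249) and at FOXA1 (37129501 to 37129849). The lists differ in length, so no change in list order was read from these pairs.

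**Figure D3:**
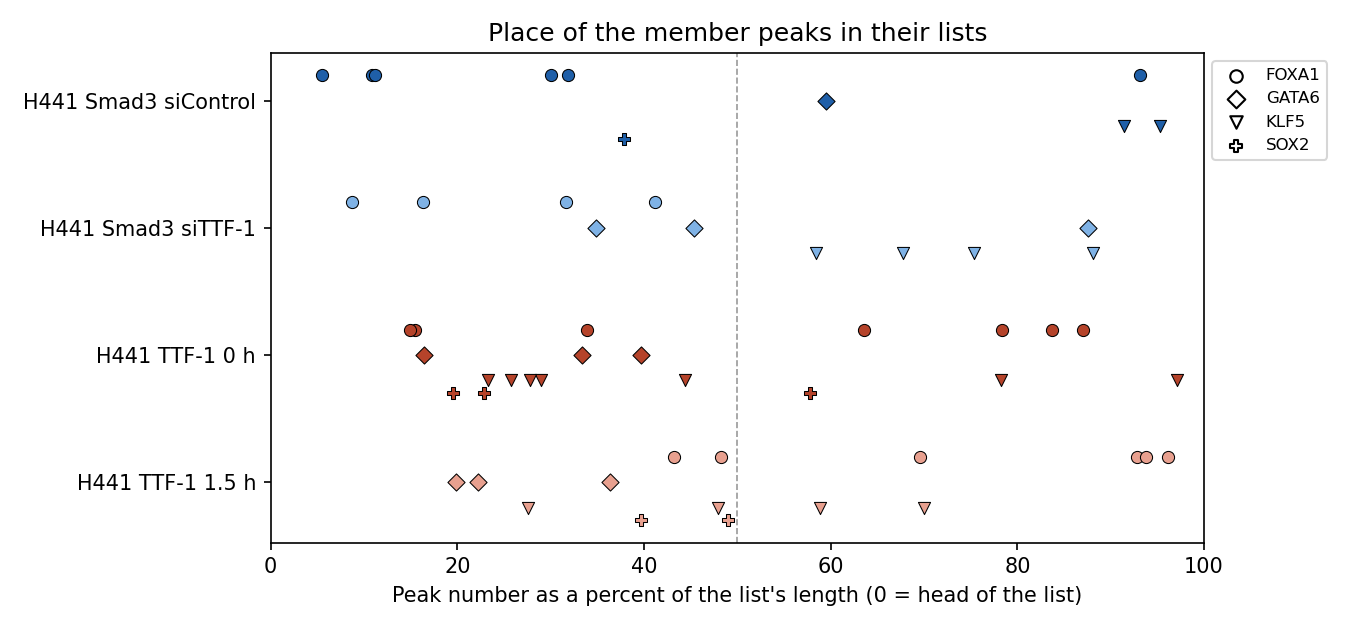
Place of each member peak in its list: the peak number as a percent of the list's length (x axis, 0 at the head, dashed line at 50) for the 4 H441 lists with member peaks (y axis), with 1 symbol per peak and 1 shape per gene. Most FOXA1 Smad3 peaks are on the left, the KLF5 Smad3 peaks lie between 58.4 and 95.3, and the FOXA1 TTF-1 peaks spread over the whole axis.

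The Smad3 pairs are likewise not compared by list order. In 4 of the 9 pairs of Smad3 siControl and siTTF-1 peaks both edges agreed within 100 bp, against 64.1% of the 7282 pairs over the whole lists, and the other 5 pairs were all in the FOXA1 run. The widest Smad3 peaks of the 6 windows were at FOXA1: its 6 siControl peaks were 749 to 2699 bp wide, and the 4 at GATA6, SOX2 and KLF5 were 899, 699, 599 and 599 bp, where the list's median is 599 bp. The TTF-1 peaks had a median of 649 bp at both times, and 13 of 20 at 0 h and 8 of 15 at 1.5 h were above the median of their list.

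The 22 sites fell into 8 patterns of presence. TTF-1 at both times without Smad3 was the most frequent at the loci, with 6 sites (27.3%), and was 29.9% of all sites in the genome. Sites with all 4 H441 Smad3 and TTF-1 maps numbered 5 (22.7%, against 11.6%) and lay at FOXA1, GATA6 and KLF5. TTF-1 at 0 h only was seen at 4 sites (18.2%, against 24.0%). A gained Smad3 peak on TTF-1 of both times was seen at 2 sites (9.09%, against 3.95%), and the lost pattern of SOX2 at 1 (4.55%, against 3.73%). Counted by factor, 19 sites had TTF-1 (86.4%, against 83.5% of all sites), 12 had H441 Smad3 (54.5%, against 41.2%) and 9 had both (40.9%, against 27.7%). These site shares were not tested, and no enrichment is read from them. The sites are not independent, since 4 of the 12 with Smad3 are parts of the FOXA1 run, and the windows were chosen with earlier results known.

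**Figure D4:**
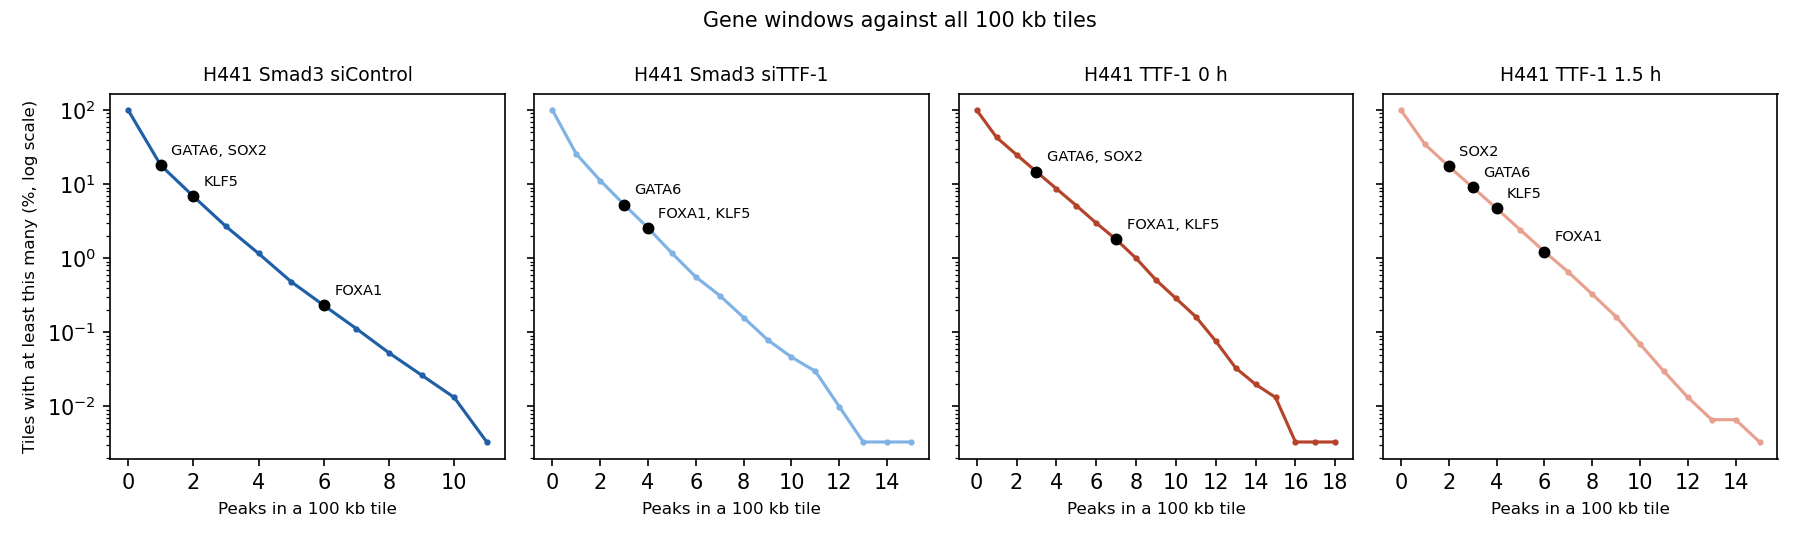
Share of all 30308 tiles of 100 kb (y axis, percent, log scale) that hold at least a given number of peaks (x axis), for the 4 H441 lists, with the counts of the gene windows marked. FOXA1 lies at 0.231% for Smad3 siControl and 2.56% for Smad3 siTTF-1, and the windows of KLF5 (120 kb) and GATA6 (140 kb) are longer than a tile.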

How the data were processed

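Peak lists of 7 ChIP-seq libraries were analysed, and 3 input libraries served the authors' peak calling. Per the labels, the authors called peaks on single libraries, with a false discovery rate limit in each description. Positions are on hg18 (build from the submitters' processing notes). For the aligner and the peak caller, names were not given in the sources used here. The deposited lists give start, end, peak number and a score, which was 1000 for every peak and was not used. Starts were converted to count from 1, and 1 track line was skipped. Samples were grouped by title, and 3 deposited subsets of the Smad3 lists were used only to look up sites. Depth is unknown from peak lists, so no limit of detection was set.

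Overlap meant at least 1 shared bp, and shares have exact Clopper-Pearson 95% intervals. Tiles of 100 kb run to the last position in any list. Members and gene windows were chosen with earlier results of these data known. All 6 genes were named, and at each locus the sites first in a list, widest or with Smad3 in 1 siRNA condition; the remaining sites are given too. The joining of peaks into runs, the width classes and tiles as long as a window were added after seeing the data. A planned list of 25 other lung transcription factor genes was not run, because no hg18 annotation was used here. Alternatives were other overlap rules, windows, list lengths and merging. Python 3.11.15, NumPy 2.4.6, SciPy 1.17.1 and matplotlib 3.10.9 were used. On simulated intervals, 60 of 60 counts equalled those of bedtools 2.31.1 or a direct count.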

Additional observations from a re-analysis of the deposited data

How the results depend on the processing

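Of 87 alternative values for the counts and shares over the 6 loci, 76 stayed within 1.5 times the count or within the interval of the share. The 76 include counts of 0 in the Smad4 and A549 lists, which only extended windows could have raised. The intervals of shares over so few peaks are also wide, so this number is a weak measure of stability. Trimming the windows by 20 kb on each side left 13 TTF-1 0 h peaks and 9 at 1.5 h, and keeping only the wider 50% of every list left the same numbers, 13 and 9. With trimmed windows the SOX2 peak fell outside and the kept share of Smad3 siControl peaks was 100% (9 of 9). Centres within 200 bp gave a kept share of 50%. Extending the windows by 50 kb gave 34 sites and 2 A549 peaks, both near KLF5. Joining peaks of one list within 500 bp left 6 Smad3 siControl peaks. The share of Smad3 siControl peaks with TTF-1 at 1.5 h was 30.0% with the wider 50% of every list and with lists of equal length. The 2 planned shares over Smad4 siTTF-1 and A549 member peaks have no value, since there were 0 such peaks. With only tiles that hold a peak of any list as background, 37.8% held a Smad3 siControl peak and 12.4% an A549 peak. No paired analysis was possible because each condition had 1 library.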
